A study of Rattus norvegicus with 6 samples.

Results

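The 26 genes followed here encode enzymes that build cholesterol from acetyl-CoA, an enzyme of a branch off that path (Ggps1), and proteins that sense and move sterols. They were taken from a list of rat gene symbols, and a probe was a member if its transcript accession belonged to one of those symbols. All 26 genes had a probe that was well above background on all 6 arrays, so none was lost to the filter on dim probes, and they stand among 16389 genes and unnamed features tested. The data are expression arrays of liver from male Wistar Hannover rats, bought at 4 weeks of age and kept for 1 week before dosing. Control rats (3) received the vehicle, corn oil, by oral gavage for 7 days. Treated rats (3) received pregnenolone-16α-carbonitrile (PCN) by the same route for 7 days, at 100 mg/kg per day. The rodent pregnane X receptor (PXR), a nuclear receptor for foreign compounds, is switched on by this synthetic steroid. The labels call the 3 samples of a group biological replicates and give no genetic change, so all values come from whole liver of intact animals at 1 dose and 1 time.

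Cholesterol is made in the liver by a long chain of enzymes. Acetyl-CoA is joined to HMG-CoA and turned to mevalonate, mevalonate gives isoprenoid units, these are joined to squalene, squalene is closed to lanosterol, and lanosterol is trimmed to cholesterol. The genes of this chain are switched on by the transcription factor SREBP-2, the product of Srebf2, which waits in the endoplasmic reticulum bound to its escort Scap. When sterols are plentiful, the Insig proteins hold Scap back and the factor stays inactive, and when sterols fall the factor is released to the nucleus.

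Between 61.6% and 68.9% of non-control spots lay well above background on each array, and the 75th percentile of signal ranged from 634 to 758 on the control arrays and from 488 to 627 on the PCN arrays. The control arrays lay on 1 slide with 1 scan and the PCN arrays on another, and therefore treatment and slide effects cannot be told apart in any value below. The PXR target Cyp3a23-3a1, an inducible P450, rose 19.8-fold. All 11 PXR target genes listed as markers of the treatment rose, against 4.37% higher over all tested genes. All 9 hepatocyte markers were tested, with a summed level of 2240 to 2372 in controls and 2073 to 2625 with PCN. Of these Hnf4a alone passed the test, and it kept the call in 13 of 17 alternatives. The Hnf4a call was lost without control replicate 3, with spike-in scaling, without the filter on dim probes and with the replicate block (limma adjusted p = 0.0598, 0.0824, 0.0521 and 0.0641). Of markers of other liver cells, 0 of 9 Kupffer cell genes passed in limma, 3 having an unadjusted p under 0.05 (summed level 64.4 to 74.7 in controls, 46.4 to 66.9 with PCN). Of 9 stellate cell genes 1 rose and 2 fell (21.2 to 22.7, 18.95 to 22.5), of 5 endothelial genes 1 fell (23.9 to 26.4, 22.6 to 26.03), and of 8 leukocyte genes 2 fell (1.28 to 2.08, 1.08 to 1.64). Of 4 cholangiocyte genes 0 passed in limma and 1 had an unadjusted p under 0.05, their summed level being 0.433 to 0.536 in controls and 0.560 to 0.659 with PCN. Each of these lists had members above background. The estimates of all 9 Kupffer cell genes were below 0 (median −0.39, against −0.06 over all tested genes). In the same fit 4.37% of all tested genes were higher and 15.5% lower. Of the marker calls, those of Lrat (stellate, −1.335), Rgs5 (stellate, 0.955) and Cd3d (leukocyte, −0.655) were kept in all 17 alternatives. The call of Acta2 (stellate, lower) was lost in 7 of 17 alternatives. Among these were leaving out control replicate 1 or 3 or PCN replicate 2 or 3 (limma adjusted p = 0.0760, 0.0729, 0.0621 and 0.0583). That of Cdh5 (endothelial) was lost in 12 of 17, with each of the 6 arrays left out among them (highest limma adjusted p = 0.135). That of Lck (leukocyte) was lost in 9 of 16, among them leaving out control replicate 2 or 3 or PCN replicate 2 or 3 (limma adjusted p = 0.0674, 0.0726, 0.0570 and 0.0620), and its estimate turned to 0.058 with normexp (limma adjusted p = 0.741). The part of such cells in the results was not tested, and in whole liver fewer cells of a type and less RNA per cell cannot be told apart.

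Of the 19 listed enzymes, Ggps1 among them though it lies off the path to sterols, 7 were higher in the PCN livers. The other 12, Ggps1 included, did not pass the test. Those past it were Idi1, Sqle, Lss, Cyp51, Msmo1, Hsd17b7 and Sc5d, which rose by 1.55-fold to 2.72-fold, and none of the 19 enzymes passed downward (all 9 with an unadjusted p under 0.05 in limma were estimated higher). The 2 Insig genes went apart, Insig2 rising 1.58-fold and Insig1 falling 2.54-fold. Of all 26 members 8 rose (30.8%) and 1 fell (3.85%), against 4.37% higher, 15.5% lower and 19.9% either way over all tested genes (limma, Benjamini-Hochberg adjusted p under 0.05). The median change of the members was 0.28 on the log2 scale, against −0.06 over all tested genes. These members were chosen with earlier results of the same data known, so the counts are a description.

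Levels are given throughout as the log2 of a probe's processed signal over the 75th percentile of its array, so that 0 is a signal equal to that percentile. A difference is PCN minus control, with the standard error (SE) of the fit and n = 3 arrays per group. Since probes differ in brightness, the level of a gene is compared only between arrays and never with another gene.

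The sequence upstream of the members' starts was searched for boxes of factors known to act on this pathway. Promoter windows of 300 bases (250 before and 50 after the start of a gene, RefSeq, build GRCr8) were matched for 22 of the 26 genes, those for Pmvk, Fdft1, Sqle and Stard4 not being matched. SREBP is known to act beside the factor NF-Y, whose box is CCAAT, and Sp1, whose box is GGGCGG. On either strand CCAAT stood in 17 of 22 member windows (77.3%), against 37.5% of 33469 windows in all and 38.2% of those of 8667 tested genes. It was in 6 of the 7 matched genes that rose and in 11 of the 15 others. GGGCGG stood in 18 of 22 (81.8%), against 33.1% and 59.1%, member windows being richer in G and C (median 63.2%, against 51.7% and 60%). Of the 7 matched genes that rose 5 held GGGCGG, and of the 15 others 13. A strict sterol element, TCACNCCAC, was in 0 of 22 windows, against 1.12% in all and 1.15% of tested genes. The E-box CACGTG was in 3 (Insig1, Sc5d and Scap, 13.6%), against 6.42% in all and 9.06% of tested genes. The PXR repeats DR3, DR4 and ER6, searched as a pair of AGTTCA half-sites with 3, 4 or 6 bases between them, were in 0 of 22, and in 2, 4 and 0 of all windows. The stretches just upstream of the start are shown for the matched genes that changed, 130 bases each and 210 for Insig1, read toward the gene. Capitals mark the NF-Y box, the Sp1 box and the E-box, each on either strand.
Idi1: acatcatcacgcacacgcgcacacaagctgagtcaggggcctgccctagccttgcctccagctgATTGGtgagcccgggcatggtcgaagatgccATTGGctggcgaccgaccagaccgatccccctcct
Lss: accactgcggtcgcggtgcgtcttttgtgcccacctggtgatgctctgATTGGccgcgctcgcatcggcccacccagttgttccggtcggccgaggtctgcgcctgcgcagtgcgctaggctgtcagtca
Cyp51: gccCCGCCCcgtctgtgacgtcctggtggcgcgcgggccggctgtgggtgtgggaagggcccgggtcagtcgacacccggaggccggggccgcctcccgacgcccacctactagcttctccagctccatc
Msmo1: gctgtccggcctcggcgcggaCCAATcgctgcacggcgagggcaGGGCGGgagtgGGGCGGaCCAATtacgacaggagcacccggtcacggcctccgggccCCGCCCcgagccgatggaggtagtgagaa
Hsd17b7: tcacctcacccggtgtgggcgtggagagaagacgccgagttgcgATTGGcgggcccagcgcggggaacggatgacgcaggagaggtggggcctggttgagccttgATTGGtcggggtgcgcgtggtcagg
Sc5d: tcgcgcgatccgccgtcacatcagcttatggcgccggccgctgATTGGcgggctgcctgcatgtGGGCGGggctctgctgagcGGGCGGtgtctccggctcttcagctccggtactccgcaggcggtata
Insig2: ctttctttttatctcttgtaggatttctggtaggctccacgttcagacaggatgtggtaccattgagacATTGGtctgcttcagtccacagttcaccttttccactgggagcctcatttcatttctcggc
Insig1: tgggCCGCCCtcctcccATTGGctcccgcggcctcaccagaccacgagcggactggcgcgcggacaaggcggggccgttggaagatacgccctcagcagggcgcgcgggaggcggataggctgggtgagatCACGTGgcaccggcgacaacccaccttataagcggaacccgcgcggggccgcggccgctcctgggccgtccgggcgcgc

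In build GRCr8 these stretches are Idi1 at chr17:66547525-66547654 on the minus strand, Lss at chr20:12118231-12118360 on the minus strand, Cyp51 at chr4:30991563-30991692 on the plus strand, Msmo1 at chr16:29746983-29747112 on the plus strand, Hsd17b7 at chr13:84722755-84722884 on the minus strand, Sc5d at chr8:51538278-51538407 on the minus strand, Insig2 at chr13:35040099-35040228 on the minus strand and Insig1 at chr4:8057770-8057979 on the minus strand. Idi1 and Hsd17b7 each carry 2 CCAAT boxes and no GGGCGG in the stretch, Msmo1 carries 2 and 3, and Sc5d carries 1 and 2. Farther up, the window of Hsd17b7 does hold GGGCGG, 147, 193 and 238 bases before the start, and a further CCAAT at 176. Cyp51 shows 1 GGGCGG and no CCAAT. Lss and Insig2 show 1 CCAAT box alone in the stretch, and the window of Lss also holds GGGCGG 147 and 223 bases before the start. Insig1, which fell, shows 1 of each of the 3 boxes, but its printed stretch is longer than the others. Its CCAAT lies 193 and its GGGCGG 206 bases before the start. The window of Sc5d, which rose, also holds all 3 boxes, with CACGTG 161 bases before the start. The boxes in the stretches therefore do not set Insig1 apart from the genes that rose. A match is a description, not a binding site.

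**Figure D1:**
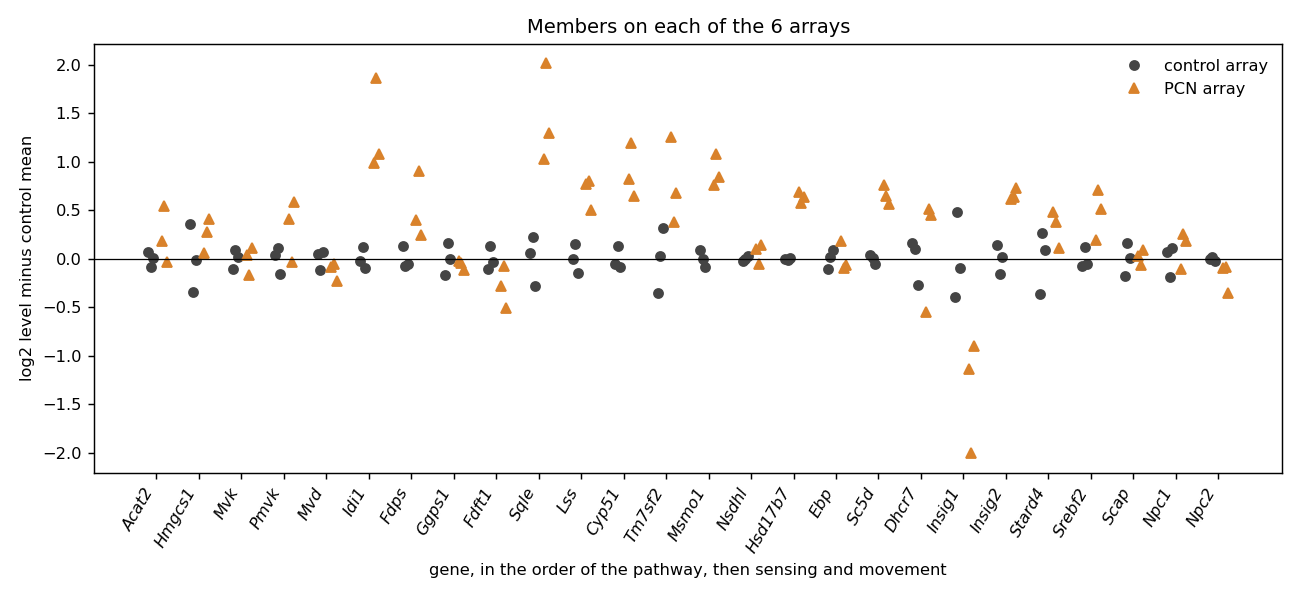
Log2 level of each of the 26 genes on each array, minus the mean of the 3 control arrays of that gene (vertical axis), in the order of the pathway (horizontal axis). Circles are control arrays and triangles PCN arrays. The PCN arrays of Idi1, Sqle, Lss, Cyp51, Msmo1, Hsd17b7 and Sc5d lie above the control arrays, and those of Insig1 lie below.

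The opening steps, from acetyl-CoA to isopentenyl pyrophosphate, showed no member past the test. Acat2, here the thiolase that joins acetyl-CoA units, had levels of 0.60, 0.46 and 0.55 in controls and 0.72, 1.08 and 0.50 with PCN. Hmgcs1, which makes HMG-CoA in the cytosol, lay at 5.27, 4.57 and 4.90 in controls and at 4.97, 5.19 and 5.32 with PCN. The groups overlapped in both genes. Their differences were 0.23 ± 0.16 and 0.25 ± 0.20 (limma adjusted p = 0.352 and 0.422), and the 95% interval for Hmgcs1 ran from −0.22 to 0.71. Mvk, the kinase that phosphorylates mevalonate, gave −0.0056 ± 0.12, and Pmvk, the kinase after it, gave 0.32 ± 0.18 (limma adjusted p = 0.980 and 0.251). Mvd, which decarboxylates the product to isopentenyl pyrophosphate, gave −0.12 ± 0.11 (limma adjusted p = 0.471). No gene of these 5 passed an unadjusted p under 0.05 either (0 of 5). The upper ends of their 95% intervals lay between 1.10-fold (Mvd) and 1.67-fold (Pmvk), so the data leave room for changes of that size.

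Among the isoprenoid enzymes 1 of 3 rose. Idi1, the isomerase that provides the reactive isoprenoid unit, had levels of −0.74, −0.60 and −0.82 in controls and 0.27, 1.15 and 0.36 with PCN. Every PCN array lay above every control array, and the PCN arrays were spread more widely, replicate 2 being the highest. The rise was 2.48-fold (log2 1.31 ± 0.24, limma adjusted p = 0.0120). Fdps, which builds farnesyl pyrophosphate, lay at 2.08, 1.88 and 1.897 in controls and at 2.35, 2.85 and 2.19 with PCN. Its groups did not overlap, but it missed the threshold (0.51 ± 0.18, limma adjusted p = 0.0967). Its other probe gave 0.71 ± 0.16, and the mean of both probes passed (0.61 ± 0.17, limma adjusted p = 0.0484). Ggps1, which makes the longer isoprenoid used to anchor proteins and lies off the path to sterols, gave −0.06 ± 0.12 (limma adjusted p = 0.750).

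From squalene to lanosterol 2 of 3 enzymes rose. Fdft1, squalene synthase, commits isoprenoids to sterols. Its levels were 2.13, 2.37 and 2.21 in controls and 1.95, 2.17 and 1.73 with PCN, a difference of −0.29 ± 0.14 (limma adjusted p = 0.204). The groups overlapped and its 95% interval ran from −0.62 to 0.05. Sqle, squalene epoxidase, adds the oxygen that lets the chain close. It lay at −0.65, −0.49 and −0.98 in controls and at 0.32, 1.31 and 0.59 with PCN. Its lowest PCN array was well above its highest control array, and its rise of 2.72-fold was the largest among the members (1.44 ± 0.27, limma adjusted p = 0.0127). Lss, the cyclase that makes lanosterol, had levels of −1.51, −1.35 and −1.65 in controls and −0.73, −0.70 and −0.996 with PCN. The groups were apart, and the rise was 1.62-fold (0.69 ± 0.13, limma adjusted p = 0.0137). Without control replicate 3, Lss was not past the threshold (0.62, limma adjusted p = 0.0530).

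Of the 8 enzymes that turn lanosterol to cholesterol 4 rose, and the estimates of all 8 were above 0 with the reported scaling, though Ebp fell below 0 with quantile, cyclic loess, normexp and spike-in processing and Nsdhl and Dhcr7 with spike-in scaling. Cyp51, the P450 that starts the removal of methyl groups, had levels of −0.25, −0.06 and −0.27 in controls and 0.63, 1.00 and 0.45 with PCN. It rose 1.85-fold (0.89 ± 0.16, limma adjusted p = 0.0118), measured over 10 spots per array. Msmo1, the methylsterol oxidase, lay at 2.30, 2.21 and 2.13 in controls and at 2.98, 3.30 and 3.06 with PCN. The PCN arrays lay well clear of the controls, and the rise of 1.86-fold had the lowest adjusted p of the members (0.90 ± 0.12, limma adjusted p = 4.47e-03). Hsd17b7, the ketosteroid reductase that acts in the same demethylation, had levels of −1.36, −1.37 and −1.35 in controls and −0.68, −0.79 and −0.72 with PCN. The control arrays were nearly identical (SD 0.01), closer than its 2 spots, whose SD reached 0.34 on the least even array. The rise was 1.55-fold (0.63 ± 0.09, limma adjusted p = 5.61e-03). Sc5d, the desaturase near the end of the chain, lay at 1.59, 1.55 and 1.496 in controls and at 2.31, 2.19 and 2.11 with PCN. It rose 1.58-fold, with no overlap of the groups (0.66 ± 0.10, limma adjusted p = 7.02e-03).

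The other 4 enzymes of this stretch were not past the threshold. Tm7sf2, a sterol reductase, had levels of 1.46, 1.85 and 2.13 in controls and 3.07, 2.19 and 2.49 with PCN. The PCN arrays lay above the control arrays by a small margin, and the spread within groups was wide (0.77 ± 0.26, limma adjusted p = 0.0859). Nsdhl, the dehydrogenase that works beside Msmo1 and Hsd17b7, lay at 0.85, 0.88 and 0.91 in controls and at 0.98, 0.83 and 1.02 with PCN. Its groups overlapped within a narrow range, and its change of 0.07 ± 0.10 had an upper bound of 1.23-fold (limma adjusted p = 0.683). Ebp, the isomerase that shifts a double bond of the sterol ring, gave 0.0072 ± 0.12 (limma adjusted p = 0.975). Dhcr7, the reductase of the last step, was at 1.38, 1.31 and 0.94 in controls and at 0.67, 1.72 and 1.67 with PCN. PCN replicate 1 was the lowest of the 6 arrays for this gene and the others with PCN the highest, so the difference of 0.14 ± 0.30 is poorly determined (limma adjusted p = 0.780).

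**Figure D2:**
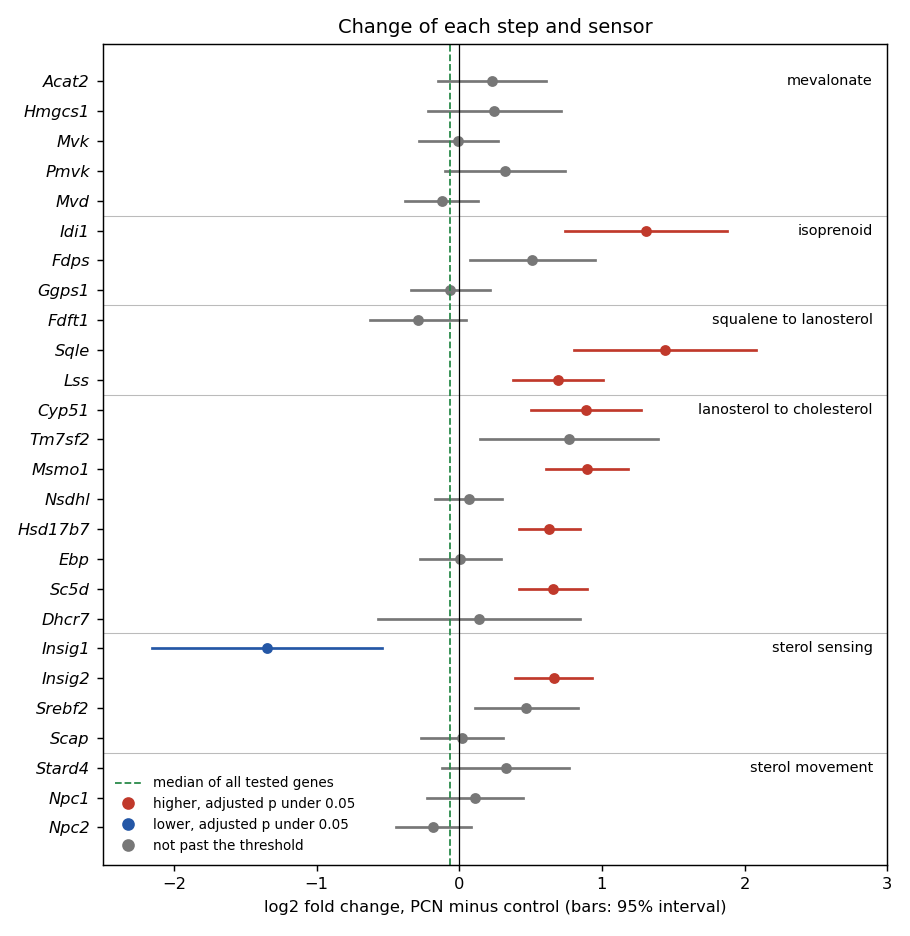
Log2 fold change of each member, PCN minus control (horizontal axis), with its 95% interval from 3 arrays per group as a bar, ordered by role (vertical axis). Red and blue points passed the test upward and downward, grey points did not, and the dashed line is the median of all tested genes. The rises begin at Idi1, and Insig1 lies alone on the left.

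Sterol sensing genes differed in direction. Insig1 encodes the Insig form that is itself switched on by SREBP and that holds Scap in the endoplasmic reticulum. Its levels were 0.28, 1.17 and 0.59 in controls and −0.45, −1.32 and −0.22 with PCN. All PCN arrays were lower than all control arrays, with PCN replicate 2 the lowest and control replicate 2 the highest. Insig1 fell 2.54-fold (log2 −1.35 ± 0.34, limma adjusted p = 0.0350). It missed the threshold when any 1 control array, PCN replicate 1 or PCN replicate 2 was left out (limma adjusted p = 0.0527, 0.0946, 0.0868, 0.0625 and 0.0615), its change then lying between −1.54 and −1.02. It was also lost when dim probes were tested too (limma adjusted p = 0.0799).

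Insig2 encodes the related form, whose liver transcript is known to be lowered by insulin. Its levels were 4.46, 4.16 and 4.34 in controls and 4.94, 4.95 and 5.05 with PCN. The PCN arrays lay close together above the controls, in a gene whose stretch above holds a CCAAT box alone, a rise of 1.58-fold (0.66 ± 0.11, limma adjusted p = 0.01). The difference Insig2 minus Insig1 within an array was 4.18, 3.00 and 3.75 in controls and 5.39, 6.28 and 5.28 with PCN. Only its change is read, since the probes are not on a common scale. It grew by 2.01 on the log2 scale, from 3.64 ± 0.60 to 5.65 ± 0.55 (SD, n = 3), with the groups apart (exact two-sided permutation test over the 6 arrays, p = 0.10, the smallest that 3 against 3 can give). Since Insig2 was higher and Insig1 lower on every PCN array, the groups had to be apart in this difference. The p was thereby fixed and adds nothing to the results of the single genes.

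Srebf2 had levels of 0.80, 1.00 and 0.81 in controls and 1.06, 1.58 and 1.38 with PCN. The groups did not overlap, but its difference of 0.47 ± 0.15 missed the threshold (limma adjusted p = 0.0750). It passed without PCN replicate 1 (0.61, limma adjusted p = 0.0333) and with median scaling of the arrays (0.62, limma adjusted p = 0.0365). Scap, the escort of SREBP, lay at 1.17, 1.51 and 1.35 in controls and at 1.37, 1.28 and 1.44 with PCN. These groups overlapped, and the difference was 0.02 ± 0.12, with a 95% interval of −0.27 to 0.31 (limma adjusted p = 0.923).

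**Figure D3:**
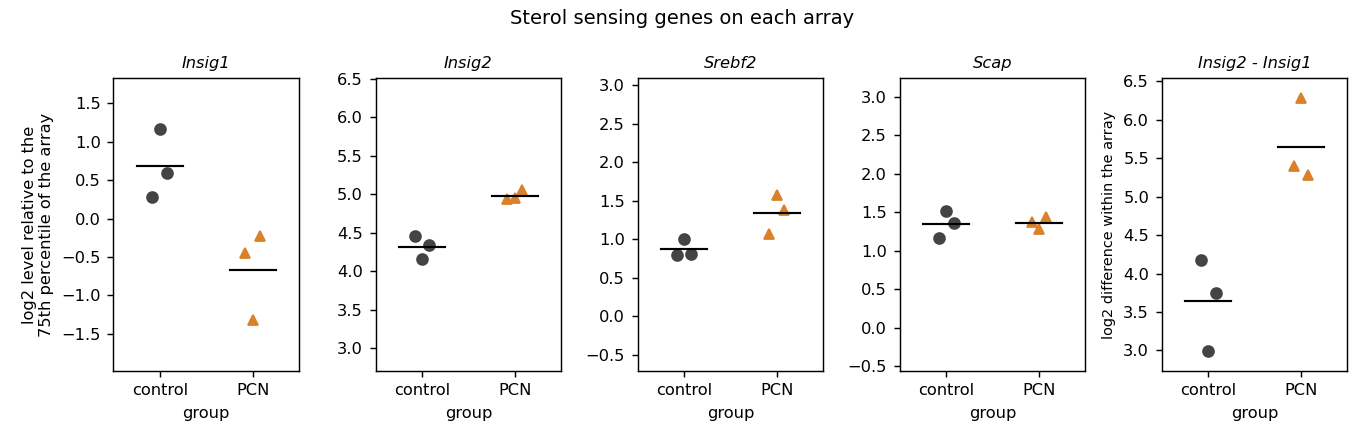
Log2 levels of Insig1, Insig2, Srebf2 and Scap on each array, and the difference Insig2 minus Insig1 within the array, by group. Points are arrays, lines are means of 3, and all panels span the same range of log2 units. Insig1 is lower and Insig2 higher on every PCN array, and Scap overlaps.

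Of the 3 genes for sterol movement 0 passed in limma, and 0 had an unadjusted p under 0.05. Stard4, a carrier of cholesterol between membranes and a known SREBP target, had levels of 0.29, 0.92 and 0.75 in controls and 1.13, 1.03 and 0.77 with PCN. The groups overlapped at PCN replicate 3 and control replicate 2 (0.32 ± 0.19, limma adjusted p = 0.272), and its other probe gave 0.25. Npc1 and Npc2 hand cholesterol out of the lysosome. Npc1 gave 0.11 ± 0.14 and its other probe gave 0.0039, and Npc2 gave −0.18 ± 0.11 (limma adjusted p = 0.627 and 0.298). All PCN arrays of Npc2 (1.58, 1.59 and 1.32) lay below its control arrays (1.67, 1.70 and 1.66).

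Counting by arrays that do not overlap, without a test, all 3 PCN arrays lay above all controls in 11 of 26 members (42.3%) and below in 2, against 14.7% above, 26.7% below and 41.4% either way over all tested genes. By stretch of the pathway, 0 of 5 mevalonate enzymes were apart upward, 2 of 3 isoprenoid enzymes, 2 of 3 from squalene to lanosterol and 5 of 8 from lanosterol on. Whether these stretches differ from each other was not tested.

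**Figure D4:**
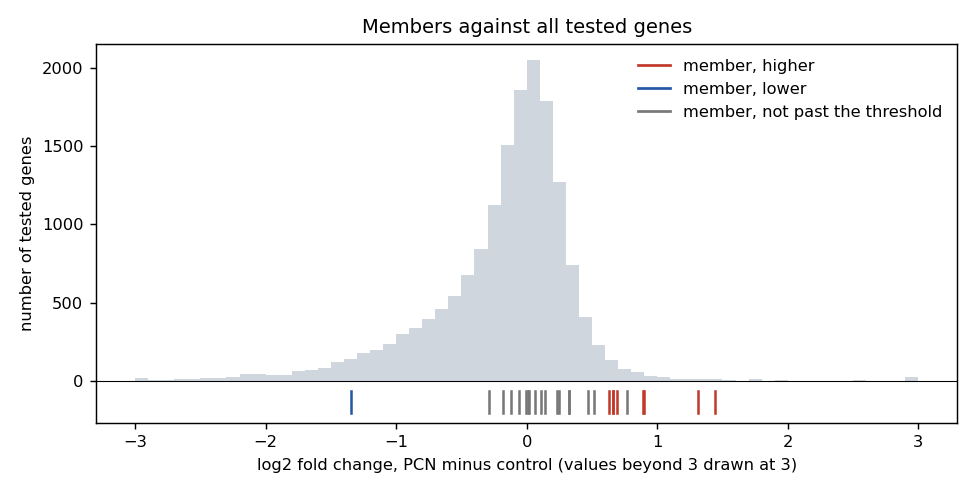
Number of tested genes by log2 fold change, PCN minus control, in grey, with the 26 members as ticks below the axis. Red ticks passed upward, blue downward and grey ticks did not pass. Most members lie to the right of the median of all genes (−0.06), and Insig1 lies in the left tail.

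The rises are relative to the scaling of the arrays. With each array scaled to its spike-in control spots, the median of all tested genes moved from −0.06 to −0.31 and that of the members from 0.28 to 0.04. This scaling shifts all genes of an array alike and so cannot move the gap of 0.35 between those medians. The gap was 0.28 with quantile normalization, 0.27 with cyclic loess and 0.21 with normexp. Under that scaling Idi1, Sqle and Msmo1 rose and Insig1 fell, 4 of the 9 calls. Lss, Cyp51, Hsd17b7, Sc5d and Insig2 kept their direction but missed the threshold (0.45, 0.64, 0.38, 0.41 and 0.41, limma adjusted p = 0.123, 0.0726, 0.0586, 0.0744 and 0.0516). With quantile, cyclic loess and normexp processing all 9 calls were kept, and with median scaling Tm7sf2 and Srebf2 were added. The share of higher genes among all calls was 21.9%. It was 3.56% with spike-in scaling, 35.6% with normexp, 36.3% with cyclic loess, 47.2% when arrays were scaled to their medians and 46% after quantile normalization.

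**Figure D5:**
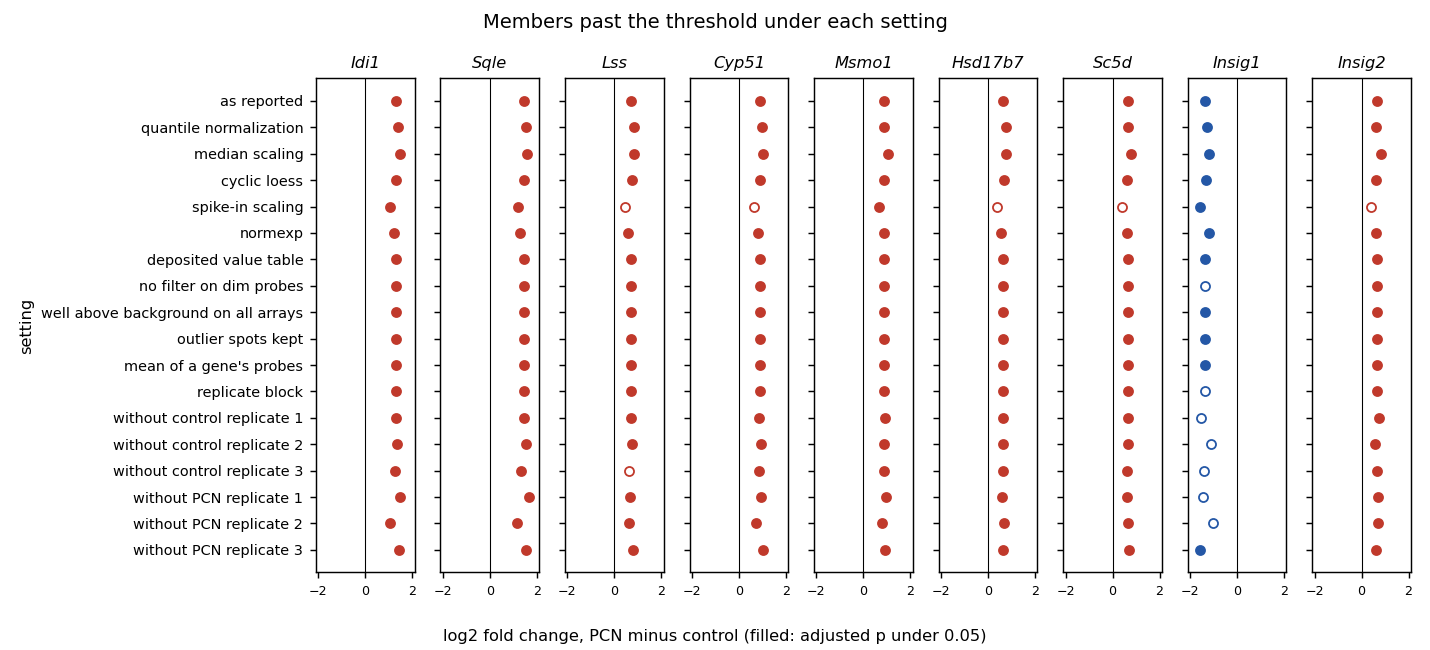
Log2 fold change, PCN minus control (horizontal axes), of the 9 members past the threshold, 1 panel each, under each way of processing the data (vertical axis). Filled points passed at an adjusted p under 0.05 and open points did not. No point crosses 0, Idi1, Sqle and Msmo1 are filled throughout, and Insig1 is open in 7 of 17 alternatives.

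In 5 lists of neighbouring functions 48 genes were tested, of which 5 rose and 4 fell, with a median change of 0.08. Over all tested genes 4.37% were higher, 15.5% lower and 19.9% called either way, with a median change of −0.06. The counts of these lists stand beside those shares and were not tested against them. Among 6 genes that process SREBP or degrade sterol-regulated proteins 2 rose and 2 fell. Ufd1, which helps pull such proteins from the membrane, rose 1.59-fold (levels 1.398, 1.73 and 1.65 in controls, 2.09, 2.39 and 2.30 with PCN, limma adjusted p = 0.0170). Rnf139, a ubiquitin ligase of the same membrane, rose 1.35-fold (−0.18, −0.24 and −0.31 against 0.15, 0.19 and 0.22, limma adjusted p = 0.0213). Both groups of arrays were apart in these genes. Each call was lost in 3 of 6 fits with 1 array left out and with spike-in scaling, Ufd1 at limma adjusted p = 0.0531 without control replicate 1, 0.0516 without control replicate 3 and 0.0522 without PCN replicate 3. For Rnf139 this occurred on leaving out control replicate 2, control replicate 3 or PCN replicate 3 (limma adjusted p = 0.0667, 0.0837 and 0.0643). Mbtps2, a protease that releases SREBP, fell by 0.71 ± 0.15 (limma adjusted p = 0.0205). Its probe is dim, with a mean control level of −4.31, and with normexp background correction its change was near 0 (−0.0068, limma adjusted p = 0.969). Mbtps2 missed the threshold when control replicate 1, control replicate 2 or PCN replicate 3 was left out (limma adjusted p = 0.0715, 0.0679 and 0.0575).

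Branches of the isoprenoid path that do not lead to sterols gave 1 rise and 2 falls among 11 genes. Dhdds and Nus1 encode the 2 subunits of the enzyme that makes dolichol. Dhdds had levels of 3.00, 2.91 and 2.66 in controls and 3.54, 3.73 and 3.64 with PCN, a rise of 1.72-fold (0.78 ± 0.12, limma adjusted p = 7.71e-03, and 0.0545 with spike-in scaling). Nus1 lay at 1.54, 1.94 and 1.92 in controls and at 0.63, 0.97 and 1.41 with PCN, a fall of 0.80 ± 0.22 (limma adjusted p = 0.0461). The partners thus gave opposite estimates, but Nus1 passed in only 7 of 17 alternatives. The mean of its probes gave −0.35 (limma adjusted p = 0.0845), and only the fit without PCN replicate 3 kept the call among those with 1 array left out (highest limma adjusted p = 0.134). Rabggtb, a subunit of the enzyme that attaches isoprenoids to Rab proteins, fell by 0.49 ± 0.12 (limma adjusted p = 0.0343), and was kept only without PCN replicate 2 among those fits (highest limma adjusted p = 0.104).

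In the other 3 lists 2 genes passed, both upward. Of 9 genes of sterol esters and oxysterol sensing 1 rose, the sterol exporter subunit Abcg5, by 6.46-fold (0.47, 0.94 and 0.28 in controls, 3.31, 3.22 and 3.25 with PCN, limma adjusted p = 3.58e-04). Of 11 fatty acid and other SREBP target genes 1 rose, Tmem97, a sterol-responsive membrane protein, by 1.69-fold (−0.61, −0.58 and −0.68 against 0.08, 0.12 and 0.19, limma adjusted p = 3.15e-03). Abcg5 and Tmem97 passed in all 17 alternatives. In the list that holds Tmem97, 3 genes had an unadjusted p under 0.05, and the other two, named after their values were seen, had estimates below 0. Scd, a fatty acid desaturase, lay at 1.49, 0.54 and 1.74 in controls and at −3.28, −1.82 and 0.99 with PCN, overlapping at PCN replicate 3. Its difference was −2.63 ± 1.01 (limma adjusted p = 0.117), and it passed without that array (−3.80, limma adjusted p = 0.0101). Fads2, another desaturase, gave −0.44 ± 0.15 with the groups apart (limma adjusted p = 0.0957), and passed with spike-in scaling (−0.68, limma adjusted p = 0.0136). Of 11 sterol transfer genes 0 passed in limma, and 0 had an unadjusted p under 0.05, the largest estimates being Stard5 at −0.32 ± 0.17 and Osbp at 0.21 ± 0.12 (limma adjusted p = 0.239 and 0.269).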

How the data were processed

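The deposited scanner intensity values come from Agilent Feature Extraction 10.7.3.1 with a 1-colour protocol (dye Cy3), per the file headers. Background was already subtracted from the processed signal, and arrays had not been brought to a common scale. The authors also deposited a table of ratio values, which matched the processed signal over the array's 75th percentile in scale and direction, with no centring of genes. Its column medians were 0.10 to 0.12. The authors' own test for change is not given here.

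In R 4.3.3, each processed signal was divided by its array's 75th percentile (non-control spots) and put on the log2 scale, outlier spots were left out and spots of a probe averaged. Of 30367 probes 18004 were named by transcript accession through RefSeq. A probe was tested if at least 0.5 of its spots, as a fraction, were well above background on all 3 arrays of a group, and the brightest tested probe stood for a gene. Limma 3.58.1 (lmFit, eBayes, two-sided, no covariate) was fitted over all 16389 genes, and p-values were adjusted by Benjamini-Hochberg over all genes (threshold 0.05). The number of arrays limits the precision.

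The members, the related lists and the cell markers were chosen with earlier results of these data known. All members are named, and of each related list the genes past the test (at most 4), or 2 where none passed. A gene of these lists is counted but not reported here by name. Alternatives were quantile, median, cyclic loess and spike-in scaling, normexp (offset 50, on the median signals of the files), the deposited table (floor 0.01), 2 other filters, outlier spots kept, the mean of probes, a replicate block and leaving out each array. The array design is annotated on build rn4, and no array coordinates are used.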

Additional observations from a re-analysis of the deposited data

How the results depend on the processing

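Direction held for all 9 members past the test under all 17 alternatives. The count of members higher was 8, and 3 with spike-in scaling, 10 with median scaling and 9 with the mean of a gene's probes (7 to 9 with 1 array left out). The count lower was 1, and 0 without a filter on dim probes and with the replicate block (0 to 1 with 1 array left out). Over all tested genes 716 were higher and 2547 lower. The counts were 1454 higher with quantile normalization, 1784 with median scaling, and 306 with the replicate block (272 to 539 with 1 array left out). They were 169 and 4579 with spike-in scaling and 283 and 1684 without the filter, and normexp gave 1432 lower. Of genes in the related lists, 9 were higher with median scaling, 2 with spike-in scaling and 3 without the filter (3 to 6 with 1 array left out). Lower were 1 with quantile normalization, with median scaling and without the filter, 2 with cyclic loess, normexp and the replicate block, and 7 with spike-in scaling (0 to 2 with 1 array left out).

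Deviations of same-numbered control and PCN arrays from their group means correlated at −0.10, −0.03 and −0.05. Arrays with different numbers were not compared, so whether the replicate numbers pair the arrays was not tested. The replicate block ended the call of Insig1 (limma adjusted p = 0.0961) and no other member's.

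Members not past the test changed sign near 0. With quantile normalization Mvk, Mvd, Ggps1 and Ebp gave 0.15, 0.016, 0.15 and −0.029, with median scaling Mvk, Mvd and Ggps1 gave 0.14, 0.025 and 0.086, and with cyclic loess Mvk, Ggps1 and Ebp gave 0.079, 0.085 and −0.026. With spike-in scaling Acat2, Hmgcs1, Nsdhl, Ebp, Dhcr7, Scap and Npc1 gave −0.017, −0.0018, −0.18, −0.24, −0.11, −0.23 and −0.14. Normexp gave 0.034 for Mvk, 0.0082 for Ggps1, −0.011 for Ebp and −0.028 for Npc1, and the deposited table gave 0.0069 for Mvk. With 1 array left out the ranges were −0.066 to 0.076 for Mvk, −0.145 to 0.021 for Ggps1, −0.079 to 0.058 for Ebp, −0.045 to 0.48 for Dhcr7 and −0.067 to 0.10 for Scap. The cause of these shifts was not tested.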

Other observations

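The members varied more among the PCN livers than among the controls, as did all tested genes by the median. The SD over 3 arrays was larger with PCN in 20 of 26 members, with a median of 0.18 against 0.12 in controls. Over all tested genes the medians were 0.17 with PCN and 0.14 in controls. In how many of all tested genes the SD was larger with PCN was not counted. With PCN the widest spreads were those of Dhcr7 (SD 0.59), Insig1 (0.58), Sqle (0.51), Idi1 (0.49) and Tm7sf2 (0.44). In controls they were those of Insig1 (0.45), Hmgcs1 (0.35), Tm7sf2 (0.34), Stard4 (0.32) and Sqle (0.25).

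PCN replicate 2 gave the highest of the 3 PCN values in 5 of the 7 enzymes that rose, the exceptions being Hsd17b7 and Sc5d, and the lowest value of Insig1. Without it the changes were 1.03 for Idi1, 1.16 for Sqle and −1.02 for Insig1, against 1.31, 1.44 and −1.35 with it. Among all 26 members it was the highest in 13, as was control replicate 2 among the controls. These counts were looked up after the values were seen and carry no test.

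Spots of the same probe on an array agree to an SD of at most 0.20 on the log2 scale for the members measured by more than 1 spot, except Hsd17b7, with an SD of 0.34 on its least even array. Npc1 rests on 1 spot per array.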
